A study of Mus musculus with 6 samples.

Results

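Paneth cell defence genes were followed through the middle small intestinal mucosa of alk-SMase knockout and wildtype mice. They were 8 genes chosen by name, the lysozyme Lyz1, the protease Mmp7, the lectin Itln1, the ribonuclease Ang4 and the alpha-defensins Defa17, Defa22, Defa24 and Defa30, out of 22700 gene identifiers in the deposited table. Alk-SMase, encoded by Enpp7, is an enterocyte enzyme that hydrolyses dietary sphingomyelin. The KO group comprised 3 C57BL/6 mice (K79S, K82S and K86S) in which exon 2 of Enpp7 had been removed with the Cre recombinase-loxP system, and the WT group 3 C57BL/6 wildtype mice (W83S, W89S and W90S). All 6 animals were fed standard pellets, each gave 1 library, and their age and sex are not given in the sources used here. The values are FPKM, a unit in which fragments are scaled to transcript length and to the mapped reads of a library, so that levels can be compared between genes of different length. Library values are listed for KO in the order K79S, K82S, K86S and for WT in the order W83S, W89S, W90S throughout.

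Paneth cells sit at the base of the small intestinal crypts, between the stem cells, and release dense granules of antimicrobial proteins into the crypt lumen. Their alpha-defensins, called cryptdins in the mouse, are made as inactive precursors that Mmp7, also called matrilysin, cuts into active peptides. Lysozyme cleaves the peptidoglycan of bacterial walls, and Wnt signalling through TCF/LEF factors is needed for Paneth cells to form and to express defensins.

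In the deposited table the gene identifiers stood beside the values of other genes. The values of 12402 identifiers, including all 8 defence genes, were put back by matching the rank of an identifier with the rank of a row, and only these are given by name. After this step 99.67% of 3649 genes with 1 annotated transcript carried values of at most 6 decimals, the mark of a single transcript in this table, against 33.87% as deposited. Genes with several transcripts had such values in 5.796% of 8748 cases after the step and in 34.33% before it.

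The 6 libraries summed to 393152 to 495362 FPKM, with 20061 to 21679 rows above 0. The table holds no reads, so no counting interval is given for single values, and the mapped reads that the study lists per library were not used here. The library labelled W83S stood apart, since 6 stomach genes made up 5.36% of its FPKM sum against at most 0.000561% in the other 5, and results are therefore also given without it. The level of Enpp7 was 605, 129 and 670 FPKM in KO and 406, 667 and 495 FPKM in WT libraries (log2 fold change -0.45, limma adjusted p = 0.782). Since an FPKM summed over all exons cannot reveal that exon 2 is missing, it checks no label.

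The 4 defensins lie close together on chromosome 8, and the end of their coding sequence encodes the mature peptide. The last 105 coding bases before the stop codon are shown since they separate Defa22 from the other 3, a division also found in the levels. They were read from GENCODE M21 transcripts (mm10, plus strand) at chr8:21656534-21656638 for Defa17, chr8:21163048-21163152 for Defa22, chr8:21735270-21735374 for Defa24 and chr8:21135396-21135500 for Defa30. Capitals mark the 40 positions at which the 4 genes are not all alike, and the other 65 are shared.
Defa17: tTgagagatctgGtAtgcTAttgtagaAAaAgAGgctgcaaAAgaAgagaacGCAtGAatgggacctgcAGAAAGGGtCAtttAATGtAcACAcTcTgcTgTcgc
Defa22: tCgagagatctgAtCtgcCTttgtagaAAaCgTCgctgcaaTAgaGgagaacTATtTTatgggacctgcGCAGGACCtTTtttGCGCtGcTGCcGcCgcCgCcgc
Defa24: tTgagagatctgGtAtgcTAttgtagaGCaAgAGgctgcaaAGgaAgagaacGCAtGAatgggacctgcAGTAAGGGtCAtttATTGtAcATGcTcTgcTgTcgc
Defa30: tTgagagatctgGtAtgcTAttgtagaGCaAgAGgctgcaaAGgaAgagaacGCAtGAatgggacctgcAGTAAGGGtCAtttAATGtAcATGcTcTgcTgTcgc
Defa24 and Defa30 differed at 1 of these positions, and Defa17 differed from them at 7 and 6. Defa22 differed from Defa17 at 36 positions and from Defa24 and Defa30 at 40 each.

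Sequence likeness limits how well reads can be assigned to a single defensin. Every window of 50 bases, the read length, was taken from the longest annotated transcript of each gene and looked for in the transcripts of all other genes. Of the windows of Defa17 8.05% occurred in no other gene, and 320 of its 348 windows were also in Defa3. This share was 25.1% for Defa22, which had 269 of 370 windows in common with Defa21, 47.6% for Defa30 and 71.9% for Defa24, and Defa24 and Defa30 had 98 windows in common. The 4 other genes were far more distinct, with 83.9% for Lyz1, 92.6% for Mmp7, 95.3% for Ang4 and 99% for Itln1. The values of single defensins are thus uncertain where the counting could split reads between copies, whereas those of Itln1, Ang4 and Mmp7 rest mostly on sequence of their own.

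**Figure D1:**
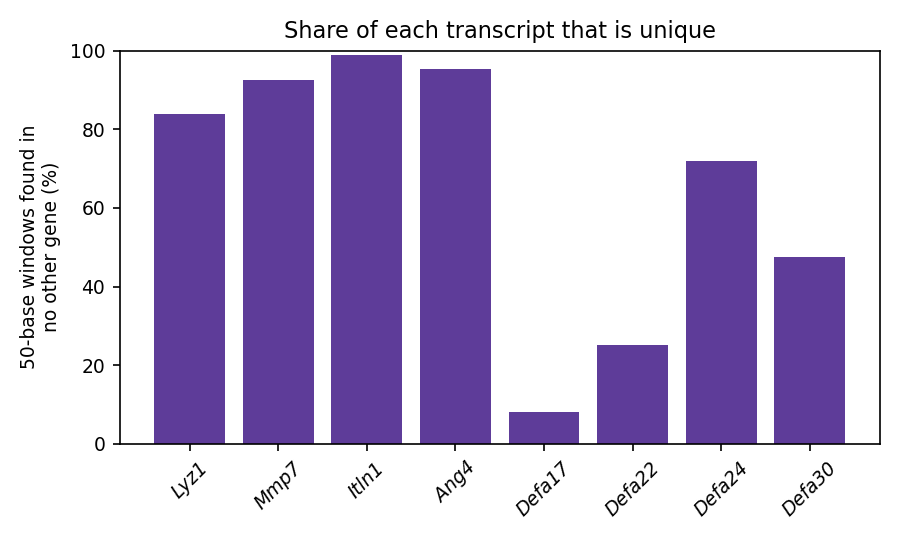
Share of 50-base windows of each defence gene's longest annotated transcript (in percent) that occurs in no other gene's transcripts. The share runs from 8.05% in Defa17 to 99% in Itln1, and the 4 defensins have the 4 lowest bars.

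The 150 bases before the RefSeq start site (GRCm38.p6) are given for the 3 genes in which both motifs searched were found around the start. The motifs were the TCF/LEF core CTTTGA, read as TCAAAG on the other strand, and the TATA box TATAAA, read as TTTATA on the other strand, and capitals mark the matches. Windows ran from 250 bases before to 50 bases after the start, and the regions printed are chr8:21162127-21162276 for Defa22, chr8:21134500-21134649 for Defa30 and chr9:7691940-7692089 for Mmp7, all on the plus strand.
Defa22: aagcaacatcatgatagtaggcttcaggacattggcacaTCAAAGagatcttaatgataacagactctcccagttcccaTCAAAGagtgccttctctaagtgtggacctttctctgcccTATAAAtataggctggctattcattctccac
Defa30: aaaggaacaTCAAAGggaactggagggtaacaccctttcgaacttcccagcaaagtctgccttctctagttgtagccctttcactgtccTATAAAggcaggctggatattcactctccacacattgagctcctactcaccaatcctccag
Mmp7: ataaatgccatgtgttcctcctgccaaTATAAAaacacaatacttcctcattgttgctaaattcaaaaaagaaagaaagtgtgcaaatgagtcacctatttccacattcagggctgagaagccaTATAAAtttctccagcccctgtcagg
Defa22 held 2 TCF/LEF strings, starting at -111 and -71, ahead of a TATA box at -31. Defa30 held 1 at -141 and a TATA box at -61, and Mmp7 held TATA boxes at -123 and -26 and a TCF/LEF match 5 bases after the start. The windows of Lyz1, Itln1 and Ang4 held neither string, and Defa17 and Defa24 had no entry. Of 32851 RefSeq promoter windows of the same length 16% held the TCF/LEF string and 13.6% the TATA string. A match describes these letters and does not show binding.

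All 8 defence genes had a lower mean in KO than in WT mucosa, with log2 fold changes between -1.91 and -1.55 and a median of -1.74, whereas the median over all 13089 rows tested was -0.06. None of the 8 passed the thresholds of adjusted p under 0.05 and fold above 1.5 or below 2/3 in limma on log2(FPKM + 1), 0 had an unadjusted p under 0.05, and the 95% confidence interval of each of the 8 included 0. In the same fit 1 row, or 0.00764%, passed as lower in KO, and 1638 rows had an unadjusted p under 0.05. A fold below 2/3 was found in 8 of 8 defence genes and in 10.4% of all rows. In 0 of 8 did all KO libraries lie below all WT libraries, which 11.3% of all rows did. In bulk mucosa, fewer Paneth cells and less RNA per Paneth cell cannot be told apart.

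The groups overlapped through K82S and W83S. K82S, a KO library, was above W83S, a WT library, in 8 of 8 genes, and in 7 of 8 the libraries ran K79S, K86S, W83S, K82S, W90S and W89S from low to high. K79S and K86S were below every WT library in 8 of 8 genes, beside 32.3% of the 12764 rows tested without K82S. Summed over the 8 genes, the level was 939, 6884 and 1587 FPKM in the KO libraries and 3312, 13203 and 9100 FPKM in the WT libraries. These sums were 0.239%, 1.48% and 0.377% of all FPKM in the KO libraries and 0.685%, 2.67% and 1.92% in the WT libraries.

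**Figure D2:**
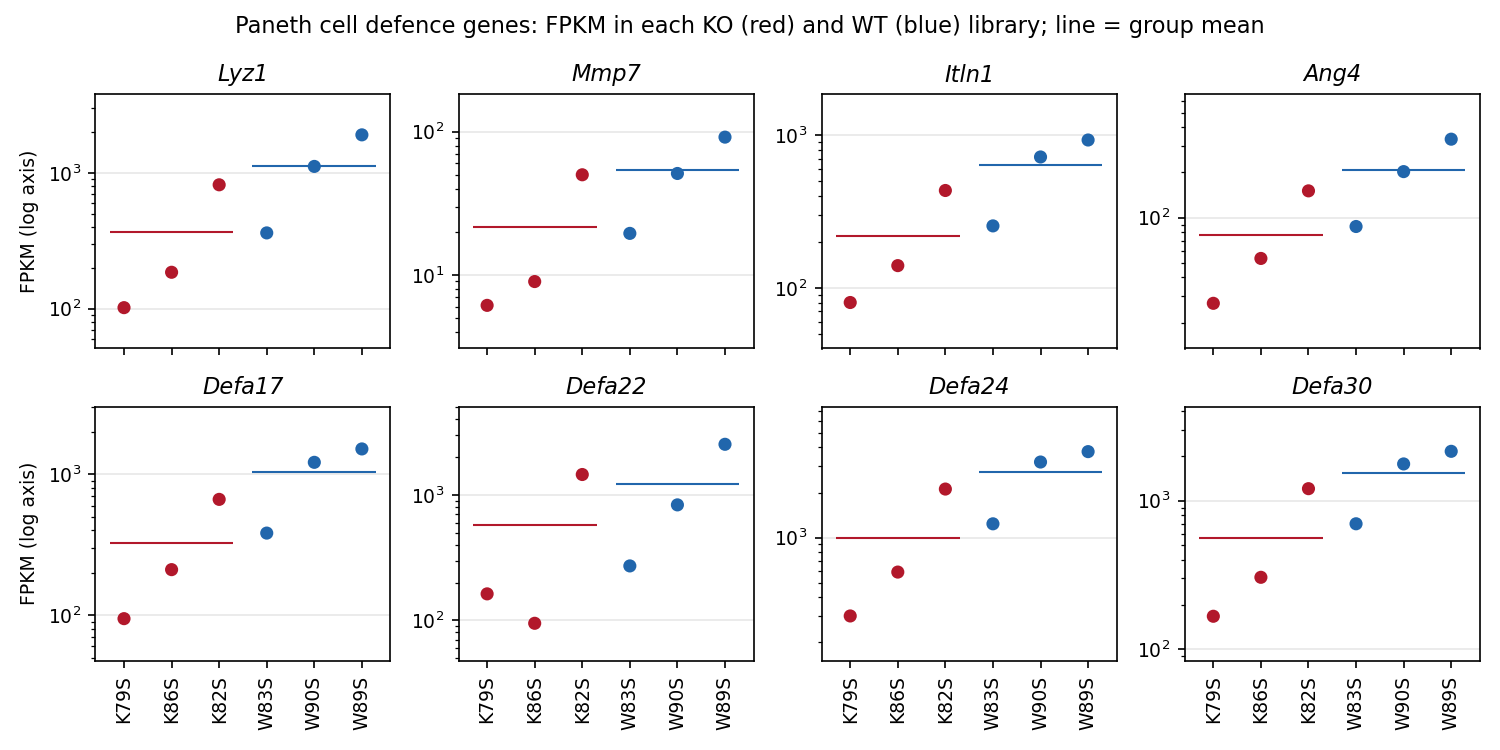
FPKM (log axis) of the 8 defence genes in each library, KO in red and WT in blue, with a line at the group mean of 3 libraries. In each panel K82S lies above W83S, K79S and K86S lie below all WT libraries, and W89S is the highest point. K79S and K86S were below all WT libraries in 32.3% of the 12764 rows tested without K82S.

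Lyz1 (ENSMUSG00000069515.6, chr10:117287797-117292868, minus strand, 4 exons) encodes the lysozyme of Paneth granules. It measured 101.5, 816 and 185 FPKM in the KO libraries and 361, 1905 and 1115 FPKM in the WT libraries. K82S was above W83S and below both other WT libraries, so the groups overlapped. The mean was 368 ± 391 FPKM for KO and 1127 ± 772 FPKM for WT mice (SD, n = 3 each), with a log2 fold change of -1.88 (SE 0.90, limma adjusted p = 0.410, exact two-sided permutation p = 0.2). With 3 libraries against 3 the smallest p of the permutation test is 0.1.

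Lyz2, the lysozyme of macrophages and other myeloid cells, has 195 of the 1214 windows of Lyz1 in common with it. Lyz2 measured 17.5, 122 and 27 FPKM in the KO and 41, 184 and 123 FPKM in the WT libraries, in the same order of libraries as Lyz1. Summed levels of 5 macrophage genes, led by C1qa, C1qb and Csf1r, were 39.5 to 67.6 FPKM in KO and 41.1 to 52 FPKM in WT libraries and did not follow this order, with a median log2 fold change of 0.21 and 0 past the thresholds. The ratio of Lyz1 to Lyz2, chosen after its values were seen, was 5.8, 6.69 and 6.86 in KO and 8.8, 10.4 and 9.08 in WT libraries. The ratios did not overlap, at 6.45 ± 0.57 against 9.41 ± 0.834 (SD, n = 3 each, exact permutation p = 0.1, adjusted p = 1 over 26 ratios computed).

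Ang4 (ENSMUSG00000060615.5, chr14:51763878-51773590, minus strand, 2 exons) encodes angiogenin 4, a secreted ribonuclease with bactericidal action. It measured 26.9, 151 and 53.5 FPKM in the KO libraries and 87.3, 333 and 203 FPKM in the WT libraries. K82S lay between W83S and W90S. The KO mean was 77.1 ± 65.3 FPKM and the WT mean 208 ± 123 FPKM (SD, n = 3 each), with a log2 fold change of -1.57 (SE 0.72, limma adjusted p = 0.400, exact permutation p = 0.2). Of 5 lysozyme and angiogenin relatives tested 4 were lower and 1 higher in KO, with a median of -0.79, and 0 passed. Among them Rnase4 and Ang differed little, with log2 fold changes of -0.08 and 0.03 (limma adjusted p = 0.948 and 0.980).

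Itln1 (ENSMUSG00000038209.12, chr1:171518122-171535294, minus strand, 8 exons) encodes intelectin 1, a lectin that binds microbial glycans. Its FPKM was 80.1, 433 and 139.7 in the KO libraries and 254, 928 and 718 in the WT libraries. Means were 218 ± 189 FPKM for KO and 633 ± 345 FPKM for WT mice (SD, n = 3 each), and the log2 fold change was -1.70 (SE 0.72, limma adjusted p = 0.393, exact permutation p = 0.2). Its library order was that of Lyz1, although 99% of its windows occur in no other gene.

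Mmp7 (ENSMUSG00000018623.9, chr9:7692090-7699585, plus strand, 6 exons), the protease that activates the alpha-defensins, had the lowest level of the 8. It measured 6.13, 50 and 8.99 FPKM in the KO libraries and 19.5, 91.6 and 51.1 FPKM in the WT libraries. K82S and W90S were nearly alike. The means of 21.7 ± 24.6 FPKM for KO and 54 ± 36.1 FPKM for WT mice (SD, n = 3 each) gave a log2 fold change of -1.59 (SE 0.85, limma adjusted p = 0.441, exact permutation p = 0.2).

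Defa24 (ENSMUSG00000064213.5, chr8:21734494-21735471, plus strand, 2 exons) was the most abundant of the 8. It measured 299.7, 2109 and 589 FPKM in the KO libraries and 1236, 3750 and 3196 FPKM in the WT libraries. Only K82S among the KO libraries exceeded a WT library, W83S. The means were 999 ± 972 FPKM for KO and 2727 ± 1321 FPKM for WT mice (SD, n = 3 each), with a log2 fold change of -1.77 (SE 0.77, limma adjusted p = 0.393, exact permutation p = 0.2).

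Defa30 (ENSMUSG00000074444.4, chr8:21134642-21135598, plus strand, 2 exons) measured 167, 1205 and 306 FPKM in the KO libraries and 699.8, 2148 and 1767 FPKM in the WT libraries. K82S lay between W83S and W90S here too. Its level stayed between 0.519 and 0.573 of that of Defa24 in every library, the narrowest ratio of the 8 genes. The log2 fold change was -1.81 (SE 0.78, limma adjusted p = 0.393, exact permutation p = 0.2), from means of 559 ± 564 FPKM for KO and 1538 ± 751 FPKM for WT mice (SD, n = 3 each).

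Defa17 (ENSMUSG00000060208.5, chr8:21655780-21656735, plus strand, 2 exons) measured 94.4, 664 and 210.5 FPKM in the KO libraries and 383, 1515 and 1217 FPKM in the WT libraries, with K82S again above W83S only. Defa3, with which it has most windows in common, measured 83.6, 602 and 184 FPKM and 347, 1359 and 1091 FPKM in the same libraries, and was named here after its values were seen. Defa17 had the lowest fitted log2 fold change of the 8, -1.91 (SE 0.81, limma adjusted p = 0.393, exact permutation p = 0.2), with means of 323 ± 301 FPKM for KO and 1038 ± 587 FPKM for WT mice (SD, n = 3 each).

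Defa22 (ENSMUSG00000074443.1, chr8:21162277-21163249, plus strand, 2 exons) did not keep the library order of the other 7. It measured 163, 1455 and 94.7 FPKM in the KO libraries and 272, 2534 and 833 FPKM in the WT libraries. Here K86S was the lowest library, and K82S exceeded W90S as well as W83S. The means of 571 ± 767 FPKM for KO and 1213 ± 1178 FPKM for WT mice (SD, n = 3 each) gave a log2 fold change of -1.55 (SE 1.19, limma adjusted p = 0.588, exact permutation p = 0.4).

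**Figure D3:**
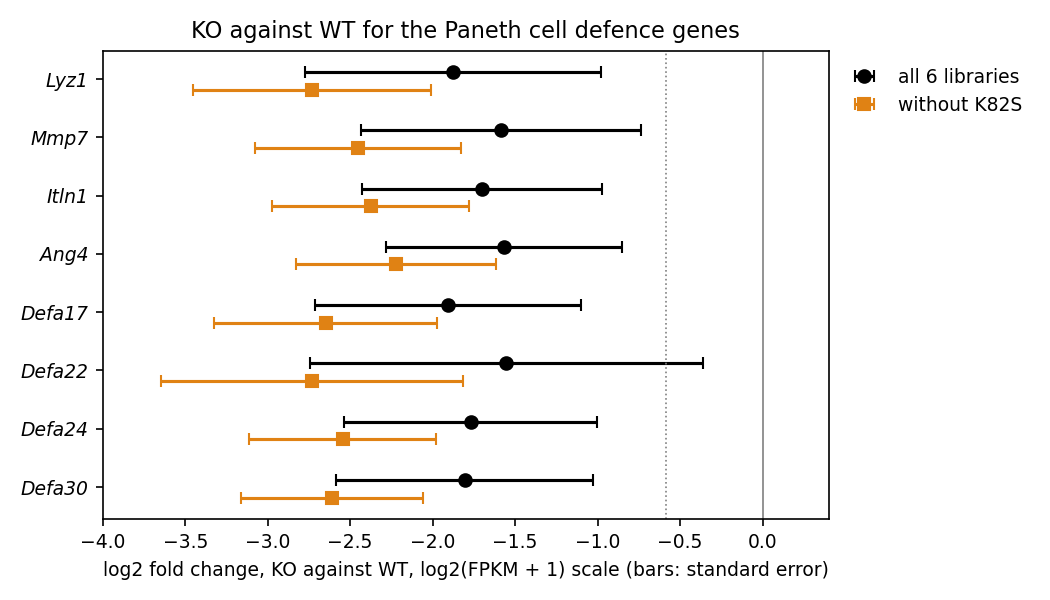
Log2 fold change (KO minus WT, limma on log2(FPKM + 1)) of the 8 defence genes with bars of 1 SE on either side, from all 6 libraries (black) and without K82S (orange), and a dotted line at a fold of 2/3. With all libraries the 8 values run from -1.91 to -1.55, and without K82S they run from -2.73 to -2.22. K82S is the highest KO library for all 8 genes, so leaving it out lowers each value.

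The spread between mice was wide. The highest library exceeded the lowest by 11.6-fold in Itln1, the gene with the least spread, and by 26.7-fold in Defa22, the gene with the most, and within the KO group K82S exceeded the next KO library by 2.82-fold to 8.95-fold. K82S was the highest KO library in 8 of 8, so leaving it out lowers every log2 fold change. Without K82S the log2 fold changes were -2.73 to -2.22, whereas leaving out K79S instead gave -1.25 to -0.999. In the fit without K82S, 8 of 8 had an unadjusted p under 0.05, beside 3284 of all 12764 rows tested. Defa30 then passed the thresholds at -2.61 (SE 0.55, limma adjusted p = 0.0455), while the other 7 had adjusted p from 0.0512 to 0.133. In that fit 8.88% of 12764 rows passed as lower in KO. K79S and K86S lay below all WT libraries in 32.3% of those rows, beside 8 of 8 defence genes.

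Without W83S, the library with stomach RNA, log2 fold changes were -2.55 to -2.09. An unadjusted p under 0.05 was then found for 7 of the 8 and for 1115 of all 12894 rows tested. The adjusted p of the 8 ran from 0.542 to 0.565. W83S was also the lowest WT library for every defence gene, so leaving it out raises the WT mean. All 8 log2 fold changes were negative with all libraries, without K82S and without W83S. Of these 3 fits a call was made only for Defa30 without K82S.

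Ratios within a library compare the genes with each other free of the overall level. Per unit of Defa24, Defa30 varied 1.1-fold between the lowest and the highest library, Itln1 1.3-fold, Defa17 1.31-fold, Ang4 1.43-fold, Mmp7 1.6-fold and Lyz1 1.74-fold, although Defa24 itself ranged from 299.7 to 3750 FPKM. Defa22 varied 4.29-fold. Its ratio to Defa24 was 0.542, 0.69 and 0.161 in the KO libraries and 0.22, 0.676 and 0.261 in the WT libraries. High and low ratios thus occurred in both genotypes, with means of 0.464 ± 0.273 in KO and 0.385 ± 0.252 in WT (SD, n = 3 each, exact permutation p = 0.9, adjusted p = 1 over 26 ratios).

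Other defensin genes were then grouped by sequence, a step added after the Defa22 ratio had been seen. Defa21, the only other gene nearer to Defa22 than to Defa24 among those with 279 coding bases, varied 4.69-fold per unit of Defa24. The 4 genes with 285 coding bases, Defa2, Defa20, Defa32 and Defa33, varied 7.28-fold to 8.61-fold, with median ratios of 0.445, 0.67 and 0.0851 in the KO libraries and 0.15, 0.61 and 0.174 in the WT libraries. They have 0 windows of 50 bases in common with Defa22 and 9 each with Defa24. In each of the 4, 0% of the windows occurred in no other gene, so their values are not independent of each other. Of the genes nearer to Defa24, the 12 with values above 0 in every library, Defa17 and Defa30 included, varied 1.1-fold to 2.2-fold, and the 3 with 348 coding bases 1.28-fold to 2.42-fold. Defa35, also nearer to Defa24, was left out of the ratios because it was listed at 0 in K79S and K86S. The ratio of Defa22 was higher in K79S, K82S and W89S than in the other 3 libraries, and the split was defined by it. All 4 genes with 285 coding bases had this split too. So did Defa21, in which 269 of the 370 windows of Defa22 recur. How many of all genes have the split was not counted. The same split, of smaller size, was present in Defa5, Defa34 and Gm15293, 3 of the 12 genes nearer to Defa24. Of the last 105 coding bases, these 3 differed from Defa24 at 28, 28 and 30 and from Defa22 at 36, 36 and 38. Defa36 and Defa37, which also differed from Defa24 at 28, did not have the split. It was present in the ratio of Mmp7 to Defa24, which was 0.0205, 0.0237 and 0.0153 in the KO libraries and 0.0158, 0.0244 and 0.016 in the WT libraries.

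The libraries with a high share of Defa22 and its like, K79S, K82S and W89S, were also those with little Fabp1, the liver-type fatty acid binding protein that enterocytes make most in the proximal intestine. Fabp1 measured 1576, 972 and 1255 FPKM in K79S, K82S and W89S and 3765, 3834 and 5415 FPKM in K86S, W83S and W90S. The split was seen in the values and was not tested, and its share among all rows was not counted. Of 4 proximal genes 2 were lower and 2 higher in KO, with a median log2 fold change of -0.21, and 0 passed. Lct and Gata4, also proximal genes, did not divide the libraries in this way, with 456, 76.3 and 163 FPKM against 490, 243 and 284.5 FPKM for Lct and 35.6, 11.3 and 25.4 FPKM against 38.3, 47.2 and 34.3 FPKM for Gata4. Slc40a1, the remaining proximal gene, named after its values were seen, did not either, at 0.617, 5.11 and 1.31 FPKM against 2.03, 7.08 and 0.529 FPKM. Among the enterocyte genes listed, Apoa4 and Rbp2 had the split of Fabp1 and the others did not. Apoa4 measured 5807, 2820 and 3340 FPKM against 10434, 6786 and 6996 FPKM. Rbp2, named after its values were seen, measured 1871, 1095 and 1627 FPKM against 3467, 2957 and 3246 FPKM.

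**Figure D4:**
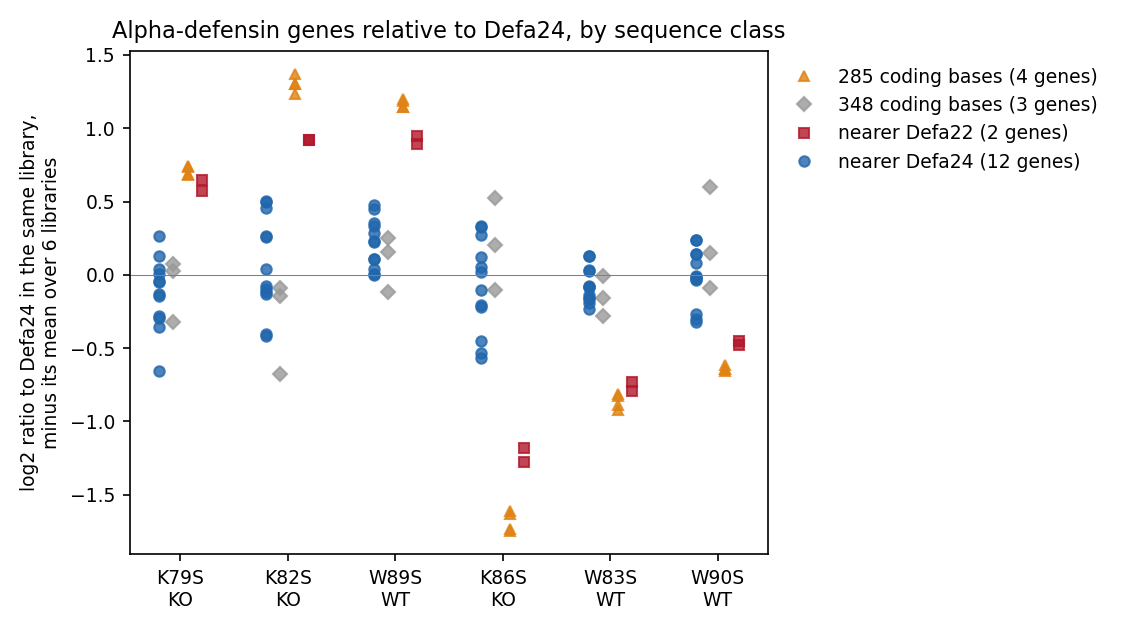
Log2 ratio of each defensin gene to Defa24 in the same library, minus the gene's mean over 6 libraries, by library and coloured by sequence class. The libraries are ordered by the split first seen in Defa22. Genes nearer to Defa22 and genes with 285 coding bases are high in K79S, K82S and W89S and low in K86S, W83S and W90S, whereas the 12 genes nearer to Defa24 that have values above 0 in every library vary by 1.1-fold to 2.2-fold, 3 of them with the same split.

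Of 40 other alpha-defensin genes 19 could be restored. All 19 were tested, 19 had a lower fitted value in KO, 0 passed the thresholds and 0 had groups that did not overlap, with a median log2 fold change of -1.75. The 3 most abundant were Defa21, Defa2 and Defa20, with log2 fold changes of -1.57, -1.57 and -1.51 (SE 1.22, 1.35 and 1.37, limma adjusted p from 0.591 to 0.657). Defa35, named after its values were seen, was the gene listed at 0 in K79S and K86S, and had 255 FPKM in K82S and 102, 419 and 262 FPKM in the WT libraries. Because many of these genes have windows in common, their values are not independent of each other or of the 4 defensins above.

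Among 7 other Paneth cell genes 6 were lower and 1 higher in KO, 0 passed, and the median log2 fold change was -1.28. Mptx2, a mucosal pentraxin, measured 8.71, 78.8 and 16.3 FPKM in the KO libraries and 39.7, 198 and 139 FPKM in the WT libraries, in the library order of Lyz1 (log2 fold change -2.14, SE 0.90, limma adjusted p = 0.393). Pla2g2a, a gene of the secreted phospholipase family, measured 0.716, 8.77 and 1.64 FPKM and 2.61, 19.1 and 7.62 FPKM. Cd24a, a surface glycoprotein of crypt base cells, differed in order, since W83S was highest at 87.9 FPKM and the other 5 ranged from 11.3 to 27.1 FPKM.

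Genes that direct Paneth cell fate showed no common direction. Of 9 tested 5 were lower and 4 higher in KO, with log2 fold changes from -0.99 to 0.59 and a median of -0.01. Xbp1, the secretory stress factor that Paneth cells need, measured 44.5 to 46.3 FPKM in KO and 37.9 to 52.1 FPKM in WT libraries. Fzd5, a Wnt receptor, had a log2 fold change of 0.21 (SE 0.16), and Spdef, a transcription factor of secretory cells, of -0.41 (SE 0.17). Spdef was below 9 FPKM in all KO and above it in all WT libraries, and 11.3% of all rows had every KO library below every WT library. Tcf7l2, named after its values were seen, went the other way. It measured 6.45, 5.3 and 4.68 FPKM in KO and 3.86, 3.61 and 4.03 FPKM in WT libraries (log2 fold change 0.41, SE 0.14, limma adjusted p = 0.393). Among 5 genes of granule sorting and autophagy 3 were lower and 2 higher, with a median of -0.15. Rab2a, Atg5 and Irgm1 had log2 fold changes of -0.15, -0.19 and 0.43 (SE 0.18, 0.14 and 0.22). None of either list passed the thresholds.

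Of 4 markers of the crypt stem cell, the neighbour of the Paneth cell, 2 could be restored, and both were lower in every KO than in every WT library. Olfm4 measured 3.98, 20.1 and 12.8 FPKM in the KO libraries and 24.8, 45.6 and 61.3 FPKM in the WT libraries (log2 fold change -1.90, SE 0.57, limma adjusted p = 0.393, exact permutation p = 0.1). Smoc2 measured 1.58, 2.98 and 2.16 FPKM and 3.7, 5.26 and 7.98 FPKM (log2 fold change -1.01, SE 0.27, limma adjusted p = 0.393, exact permutation p = 0.1). Neither passed the thresholds, and 11.3% of all rows had KO libraries that all lay below the WT libraries. The summed level of the cycling-cell genes Mki67, Top2a and Cdk1 was 4.02, 12.7 and 4.02 FPKM in KO and 8.68, 13.7 and 17.5 FPKM in WT libraries, with K79S and K86S again the lowest. All 3 had negative log2 fold changes, with a median of -0.76, and 0 passed. How far the share of crypt in each sample took part in the levels of the defence genes was not tested.

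Lists of other epithelial cells followed another order. The summed level of 7 goblet cell genes was 8707, 13845 and 7119 FPKM in the KO libraries and 7425, 13700 and 7873 FPKM in the WT libraries. It was highest in K82S and W89S, the highest KO and WT libraries of the defence genes, and between 7119 and 8707 FPKM in the other 4. Muc2 and Fcgbp, named after their values were seen, did not follow the sum. Muc2 measured 159.6, 125.6 and 77.3 FPKM in KO and 68.3, 7.03 and 68.5 FPKM in WT libraries (log2 fold change 1.79, SE 0.85, limma adjusted p = 0.408). Fcgbp measured 894, 400 and 523 FPKM and 308, 397 and 291 FPKM (log2 fold change 0.80, SE 0.33, limma adjusted p = 0.393). Tff3, Zg16 and Clca1, products of goblet cells, had log2 fold changes of -0.25, 0.39 and 0.37 (SE 0.43, 0.27 and 0.47). Of the 7 genes 3 were lower and 4 higher in KO, with a median log2 fold change of 0.37. The 7 enterocyte genes summed to 32734, 21261 and 36373 FPKM in KO and 30132, 30713 and 32240 FPKM in WT libraries, lowest in K82S, and had a median of -0.01. Apoa1, Fabp2 and Apoa4, which serve lipid transport, had values of -0.11, -0.01 and 0.04 (SE 0.21, 0.36 and 0.53). None of these 14 passed.

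**Figure D5:**
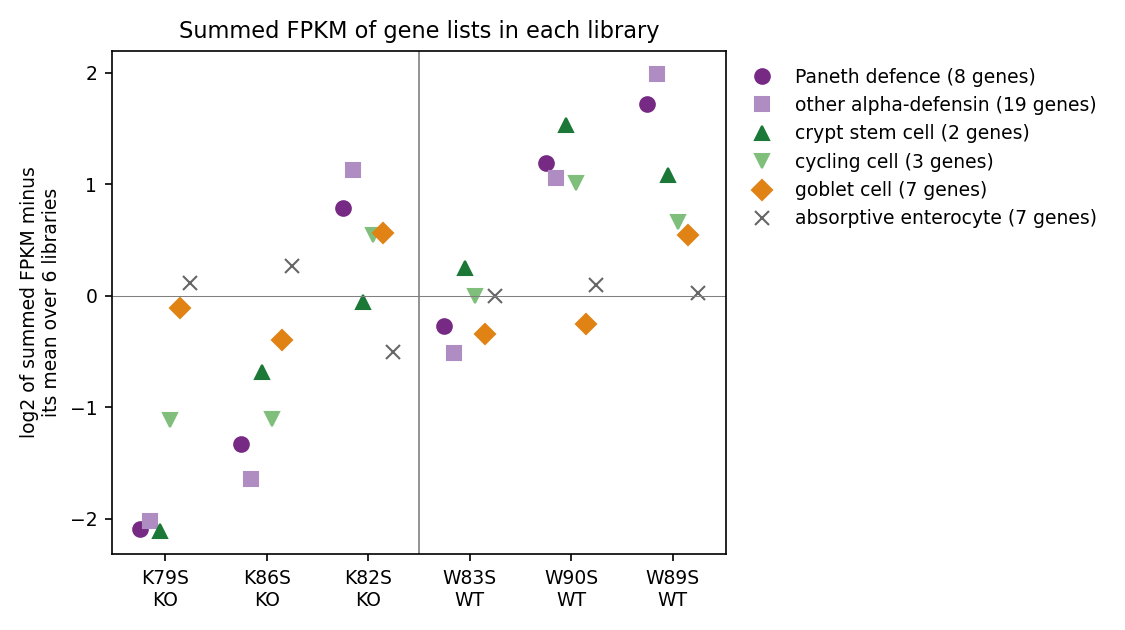
Summed FPKM of each gene list in each library on a log2 scale, centred on the list's mean over 6 libraries, with KO libraries left and WT libraries right of the line. Defence genes and other alpha-defensins are both lowest in K79S and highest in W89S. K82S lies below W90S for the defence genes and above it for the other alpha-defensins. Crypt and cycling markers are lowest in K79S and K86S, and summed enterocyte genes stay within a narrow band apart from K82S.

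Among 5136 restored genes with a log2 SD of at least 0.3, the 5 whose pattern over the 6 libraries was most like the mean of the defence genes were Gm12669, Aurkb, Exosc8, Mptx2 and Defa36, with Pearson r of 0.999, 0.997, 0.997, 0.997 and 0.996. These are descriptions over 6 libraries that each gene has in common with the others, and their levels differed widely. Aurkb, a mitotic kinase, ranged from 0.911 to 3.62 FPKM and Exosc8, a part of the RNA exosome, from 0.379 to 1.94 FPKM. Defa36 ranged from 42 to 580 FPKM. The r of a single defence gene with the mean of the 8 was 0.933 for Defa22 and 0.989 to 0.999 for the other 7.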

How the data were processed

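RNA-seq libraries of 50 bp single-end reads were made from the middle small intestinal mucosa of 3 KO and 3 WT mice. The authors trimmed the reads, mapped them to mm10 with HISAT2, quantified genes with StringTie and deposited FPKM values per gene and library. Tool versions and the handling of strand are not given in the sources used here. The study names a normalization of expression with edgeR, and the sources used here do not say if the deposited FPKM carry it. FPKM steps did not give whole reads, so no count test was run.

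Identifiers were ranked by the K79S value beside them and rows by the W83S value, and each identifier was moved to the row of its rank plus a small offset fixed per rank segment. Of 22700 rows 12402 were given a gene, and rows with and without one were fitted together. A row was dropped where more than 4 libraries had an FPKM below 1. KO and WT were compared with limma 3.58.1 (R 4.3.3, mean-variance trend) on log2(FPKM + 1), which understates changes of low genes, with Benjamini-Hochberg adjustment over all rows. A call needed adjusted p under 0.05 and a fold above 1.5 or below 2/3. The code was tested on simulated data with less spread between libraries than the defence genes have, so the test does not show power at their spread. Single genes also had an exact two-sided permutation test over 20 splits. Windows, ratios and correlations were computed in Python 3.11.15 with numpy 2.4.6 and pandas 2.3.3, and plots with matplotlib 3.10.9.

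The text names the 8 defence genes, the 3 most abundant genes of each other list and the 5 most alike genes; others are marked as named after their values were seen. The 8 genes and all lists were chosen with earlier results of these data known. Alternatives were other pseudocounts, filters and scalings, array weights and leaving out each library.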

Additional observations from a re-analysis of the deposited data

How the results depend on the processing

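Every defence gene had a negative log2 fold change under each of 13 alternatives, 104 values between -2.73 and -0.75. Of these 103 stayed on the same side of the thresholds, and Defa30 passed without KO replicate 2 (K82S, adjusted p = 0.0455). Scaling to equal FPKM sums moved the median log2 fold change of all rows from -0.06 to 0.08 and the defence genes to between -1.72 and -1.37. Their values ran from -1.25 to -0.999 without K79S, from -1.82 to -0.77 without K86S, from -1.52 to -0.75 without W89S and from -1.73 to -1.49 without W90S. Defence genes passing ranged from 0 to 1 when each library was left out. Rows passing were 1 with all libraries, 0 with a pseudocount of 0.1 or 0.01 and 2 with array weights, and 0 to 1184 when each library was left out. The 1184 came without K82S, and the value was 1 without W89S and 0 without any other library. The cause was not tested. No paired analysis was possible because, although the study describes its samples as matched pairs, the labels do not say which KO library belongs with which WT library. With 3 libraries per genotype and no reads behind single values, precision rests on the spread between mice.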

Other observations

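Markers of neighbouring organs were uneven between the libraries. The stomach genes Psca, Gkn1 and Tff1 had 2495, 6251 and 15727 FPKM in W83S, while the highest value in any other library was 1.3 FPKM. Of 3 restored genes of pancreatic acinar cells, Pla2g1b had 2309 FPKM in W83S and at most 2.02 FPKM elsewhere, Cela1 12.4 against at most 3.28 FPKM and Ctrb1 2.11 against at most 0.971 FPKM. The smooth muscle genes Acta2, Tagln and Des summed to 13.4 to 29.1 FPKM in KO and 10.7 to 33.6 FPKM in WT libraries, with K86S and W90S the highest. Of 6 neutrophil genes 0 had an identifier in the table. Cubn, the 1 restored gene of the distal small intestine list, which encodes an endocytic receptor of the ileum, measured 63.6, 29.8 and 45 FPKM in the KO libraries and 14.9, 29.3 and 15.7 FPKM in the WT libraries (log2 fold change 1.17, limma adjusted p = 0.393, exact permutation p = 0.1).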
